A study of Mus musculus with 9 samples.

Results

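The genes described here are 40 genes that run DNA replication and mitosis, chosen by name, out of 23420 genes listed in a table of normalised reads. All 40 were found in the table and all 40 passed the filter on low values, which asked for 10 or more normalised reads in 3 or more libraries and left 9564 genes to test. The RNA came from RAW264, a mouse macrophage-like cell line, in 3 groups of 3 Illumina libraries: control cells with no mutation and the clones labelled KO #1 and KO #2, called KO1 and KO2 here. Both clones were made by electroporation of Guide-it-ZsGreen1 vectors carrying Cas9 and a guide RNA against Zscan10, followed by sorting of single cells, so each is 1 clone. Per the labels KO1 is mutated in exon 2 and KO2 in exon 5, but the same samples also carry library names with the opposite numbers, and the exon of each clone was not settled here. All 9 libraries came from cells without RANKL, the cytokine that turns these cells into osteoclasts. The labels do not say whether the control cells went through transfection and sorting.

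A cell that divides passes through G1, copies its DNA in S phase and separates the copies in mitosis. In G1 the D-type cyclins activate the kinases Cdk4 and Cdk6, which release E2F transcription factors from the retinoblastoma protein, and E2F then drives cyclin E, the MCM helicase and the enzymes that make deoxynucleotides. The genes of mitosis peak later, under the MuvB, B-Myb and FoxM1 factors, and the CDK inhibitors p21 (Cdkn1a) and p27 (Cdkn1b) act against the kinases. Macrophage lines such as RAW264 proliferate in culture, so these transcripts are abundant in them.

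The changes among these genes were small. Ccnd2 passed the filter on low values through KO1 only, where it was high, so its values are given below as a description and the counts that follow are over the other 39 genes, which passed in every group. In KO1 4 of 39 rose against control (Ccnd1, Cdkn1a, Pcna and Rrm2) and 4 fell (Aurka, Cdc20, Birc5 and Mki67), led by Cdkn1a (1.56-fold) and Rrm2 (1.34-fold) upward and Aurka (1.22-fold) downward. In KO2 5 rose (Rrm2, Cdk6, Ccne1, Ccne2 and Cdt1) and 6 fell (Ccnd1, Pcna, Cdk4, Aurkb, Top2a and Cenpf), led by Rrm2 (1.57-fold) and Cdk6 (1.49-fold) upward and Aurkb (1.25-fold) and Cdk4 (1.23-fold) downward. The 2 comparisons share the 3 control libraries.

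A gene was called at an adjusted p (Benjamini-Hochberg, limma, 9564 genes) below 0.05. The background was 20.8% of tested genes called in KO1 (10.5% higher and 10.2% lower), against 20.5% of the 39 members, so the members' share lay near it. In KO2 the background was 22.5% (10.7% higher and 11.8% lower), against 28.2% of the 39 members. The members' median absolute log2 change was 0.091 in KO1 and 0.11 in KO2, where all tested genes had 0.15 in both. Over the 7379 tested genes within the range of levels of these 39 that median was 0.13 in both, with 21.7% called in KO1 and 23.9% in KO2. With Ccnd2 the fit called 5 higher and 4 lower in KO1, and 5 and 7 in KO2.

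**Figure D1:**
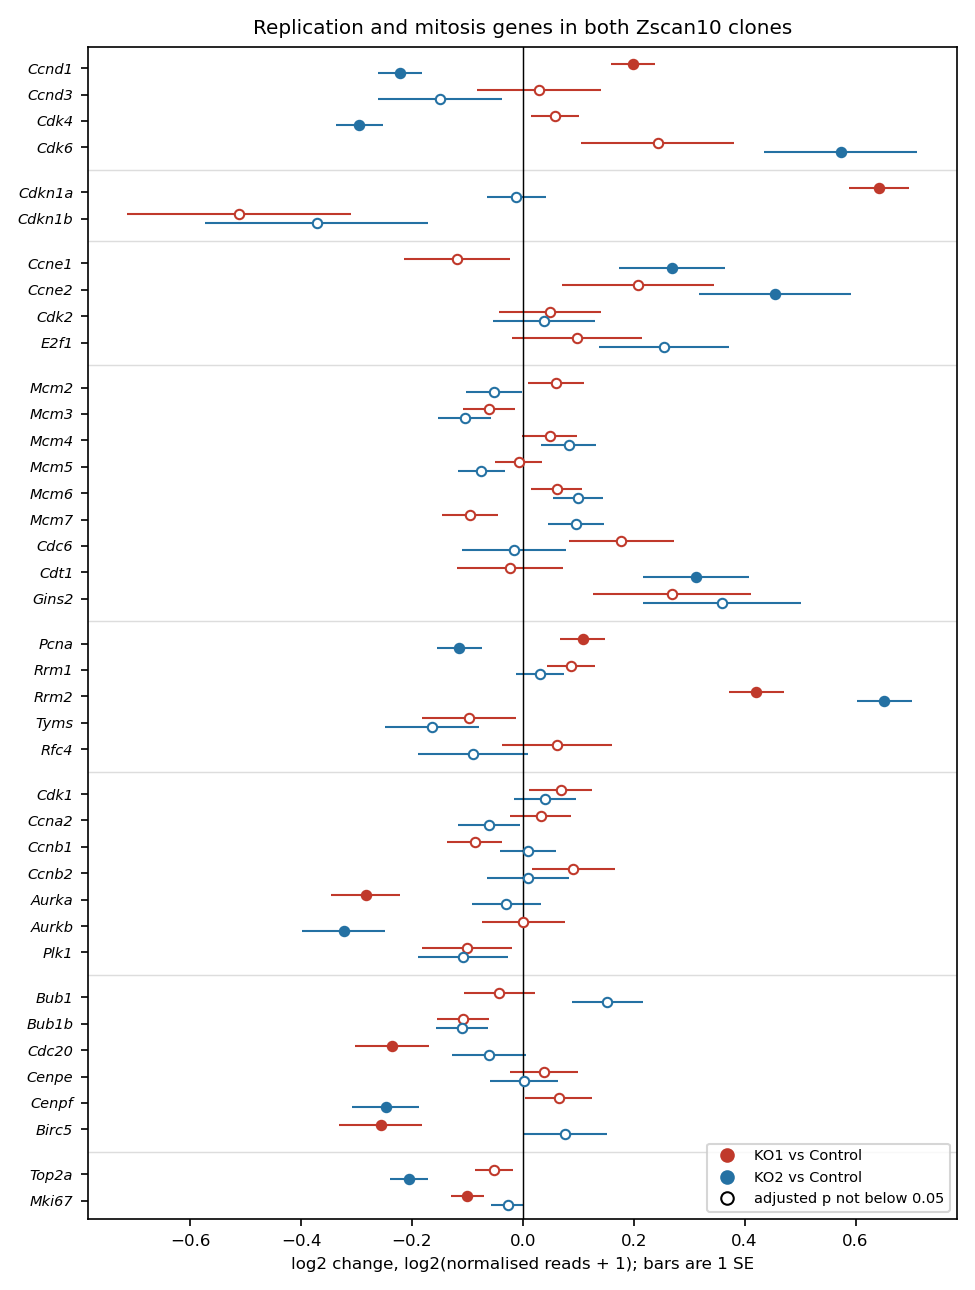
Log2 change against control (x axis, log2 of normalised reads plus 1) of 39 members in KO1 (red) and KO2 (blue), with bars of 1 SE. The SE is that of the fit, which shares 1 estimate of the spread over all 9 libraries, 3 per group. Filled points have an adjusted p below 0.05. Ccnd2, at 1.42 and -1.64, lies off the axis and is left out. Most open points sit close to 0, whereas Rrm2 lies to the right in both clones and Cdkn1a in KO1.

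**Figure D2:**
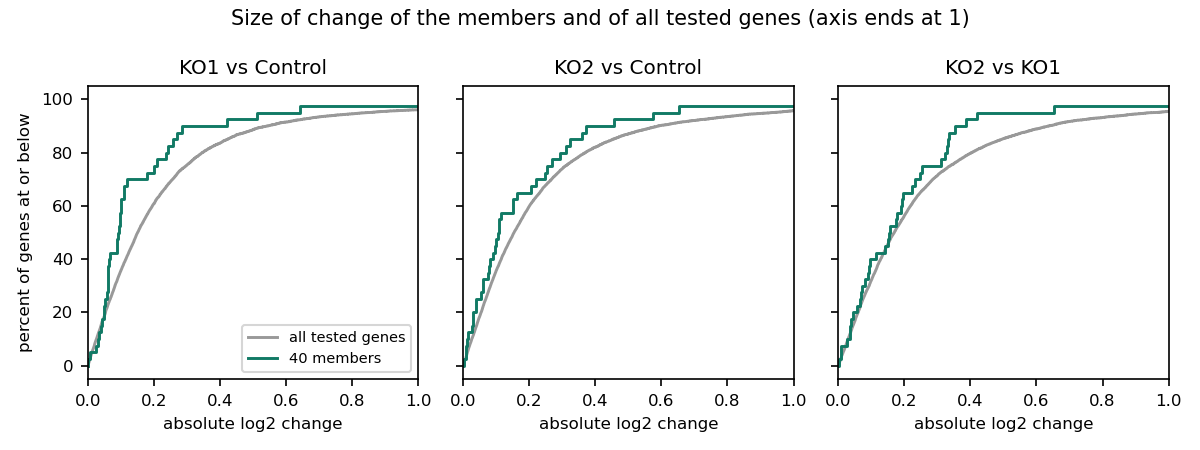
Cumulative share of genes (y axis, percent) by absolute log2 change (x axis, cut at 1) for the 40 members, Ccnd2 included (green) and all 9564 tested genes (grey) in each comparison. The green line rises earlier than the grey one in KO1, where the median absolute change was 0.093 against 0.15.

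Each library held between 1821703 and 2458539 recovered reads. Levels are given in normalised reads, either for libraries 1, 2 and 3 in turn or as mean ± SD of 3 libraries. Whether the libraries of 1 clone are separate cultures is not stated, and the p-values then cover only the spread among these libraries, possibly a technical one. That spread was close to counting error, with a chi-square per degree of freedom of 1.06 to 1.31 between libraries of 1 group. Zscan10 itself had 0 reads in all 9 libraries, where 3 reads over all of them would be 0.154 CPM, so these reads do not check the knockout labels. Of 12 macrophage markers 10 were in the table, 9 of them with at least 10 normalised reads in every library. Their sum was 30110 to 31150 in control, 43340 to 44370 in KO1 and 38770 to 40190 in KO2, and its part in the results below was not tested. Of 8 osteoclast markers 1 had at least 10 normalised reads in every library and Calcr was at 0, and their sum was 20.98 to 26.17 in control, 21.6 to 33.9 in KO1 and 71.7 to 78.3 in KO2, which stood apart, and its part in the results in KO2 was not tested either. Of the fibroblast markers Col1a1, Col1a2, Col3a1, Dcn and Thy1 were at 0 in every library, as were Ms4a1, Cd3e and Cd4 of the lymphocytes.

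The stretches of 250 bases before the transcription start are shown for some of the members, to place the known promoter elements of cell cycle genes beside the measured levels. They are from RefSeq, build GRCm38.p6, whose coordinates are those of mm10, and 33 of the 40 members had an entry, with a start 0 to 426 bases from that of the deposited gene model. Ccnd1 and Aurkb were among those without an entry, and Cdk4, Cdk6 and Pcna, which had one, are not shown. Capitals mark the CHR element TTTGAA, the E2F motifs TTTCCCGC, TTTCGCGC, TTTGCCGC and TTTGGCGC, and the CCAAT box CCAAT, each searched on both strands. Mcm6, which was not called in either clone in the main fit, is shown for its E2F motifs.
Rrm2 (chr12:24708004-24708253, plus strand): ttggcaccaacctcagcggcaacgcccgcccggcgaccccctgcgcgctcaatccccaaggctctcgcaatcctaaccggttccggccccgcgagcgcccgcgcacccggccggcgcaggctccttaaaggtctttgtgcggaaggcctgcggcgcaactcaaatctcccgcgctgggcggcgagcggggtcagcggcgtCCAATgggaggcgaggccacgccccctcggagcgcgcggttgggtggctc
Mcm6 (chr1:128359706-128359955, minus strand): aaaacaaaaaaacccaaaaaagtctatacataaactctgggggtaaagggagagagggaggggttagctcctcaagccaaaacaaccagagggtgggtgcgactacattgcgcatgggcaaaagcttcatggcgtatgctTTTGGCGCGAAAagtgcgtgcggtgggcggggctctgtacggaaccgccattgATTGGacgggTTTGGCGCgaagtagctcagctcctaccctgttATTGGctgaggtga
Cdkn1a (chr17:29090729-29090978, plus strand): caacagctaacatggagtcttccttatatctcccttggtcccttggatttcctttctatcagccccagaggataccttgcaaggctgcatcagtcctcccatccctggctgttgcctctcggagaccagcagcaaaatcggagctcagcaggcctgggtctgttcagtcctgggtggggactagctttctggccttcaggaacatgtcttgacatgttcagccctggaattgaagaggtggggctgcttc
Aurka (chr2:172370571-172370820, minus strand): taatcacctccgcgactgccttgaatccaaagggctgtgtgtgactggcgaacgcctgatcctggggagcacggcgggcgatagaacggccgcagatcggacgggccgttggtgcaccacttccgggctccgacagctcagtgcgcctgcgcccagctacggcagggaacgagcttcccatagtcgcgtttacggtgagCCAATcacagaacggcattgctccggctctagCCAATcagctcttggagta
Cdc20 (chr4:118437344-118437593, minus strand): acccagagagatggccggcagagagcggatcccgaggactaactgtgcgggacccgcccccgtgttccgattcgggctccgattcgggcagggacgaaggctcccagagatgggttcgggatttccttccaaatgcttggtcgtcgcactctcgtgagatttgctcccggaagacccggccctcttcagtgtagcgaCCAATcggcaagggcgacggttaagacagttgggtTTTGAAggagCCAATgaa
Birc5 (chr11:117848987-117849236, plus strand): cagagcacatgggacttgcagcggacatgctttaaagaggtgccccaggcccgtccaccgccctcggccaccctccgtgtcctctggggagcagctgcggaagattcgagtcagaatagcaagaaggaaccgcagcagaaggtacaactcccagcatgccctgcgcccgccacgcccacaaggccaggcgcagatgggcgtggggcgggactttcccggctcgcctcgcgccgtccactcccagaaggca
Top2a (chr11:99024190-99024439, minus strand): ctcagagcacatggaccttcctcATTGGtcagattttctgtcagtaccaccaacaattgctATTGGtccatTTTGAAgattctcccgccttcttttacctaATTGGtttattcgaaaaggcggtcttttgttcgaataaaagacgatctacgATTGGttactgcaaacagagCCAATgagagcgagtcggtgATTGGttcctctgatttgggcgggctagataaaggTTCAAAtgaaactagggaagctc
Cenpf (chr1:189688087-189688336, minus strand): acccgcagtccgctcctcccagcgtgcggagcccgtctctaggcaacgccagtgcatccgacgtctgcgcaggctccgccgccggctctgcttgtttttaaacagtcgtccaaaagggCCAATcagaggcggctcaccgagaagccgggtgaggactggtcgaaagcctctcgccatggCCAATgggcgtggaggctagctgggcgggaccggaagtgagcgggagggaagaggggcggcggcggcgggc

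Over all 32851 promoter stretches of that length 16% held the CHR letters, 1.86% an E2F motif and 33.8% a CCAAT box. Among the members' promoters 18.2% held CHR, 18.2% an E2F motif and 66.7% a CCAAT box, 22 of 33. By role, an E2F motif stood in 4 of 12 promoters of S phase genes and in 1 of 13 of mitosis genes, and CHR in 1 of 12 and 5 of 13. A CCAAT box stood in 12 of the 13 promoters of mitosis genes. In Mcm6 the E2F motifs begin 110, 106 and 47 bases before the start, and the pair at 110 and 106 overlap on opposite strands. Top2a holds CHR letters 179 and 23 bases and Cdc20 18 bases before the start. Rrm2, Aurka and Cenpf hold CCAAT boxes without a CHR or E2F motif, and the stretches shown for Cdkn1a and Birc5 hold none of the letters searched. The stretch of Cdkn1a lies just before the first base of its deposited gene model, and any later start within the gene is not shown. Genes with and without these letters were among those called and those not called, and a match in letters is a description, not a site of binding.

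Among the D-type cyclins and their kinases Ccnd1 rose in KO1 and fell in KO2, Cdk4 fell and Cdk6 rose in KO2, and Ccnd3 was not called. Without Ccnd2 that is 1 of 4 higher and 0 lower in KO1, at a background of 10.5% and 10.2%, and 1 higher and 2 lower in KO2, at 10.7% and 11.8%. Ccnd1, the main D-type cyclin of these cells (chromosome 7, 144929931 to 144939925), stood at 1202, 1223 and 1280 normalised reads in control, 1430, 1445 and 1378 in KO1 and 1047, 1063 and 1066 in KO2. The 3 groups did not overlap, with KO1 above and KO2 below control. The log2 change was 0.20 ± 0.039 (SE) in KO1 (limma adjusted p = 6.54e-05) and -0.22 ± 0.039 in KO2 (adjusted p = 8.22e-06), and the clones differed by -0.42 ± 0.039 (KO2 minus KO1, adjusted p = 1.52e-13). In a bulk culture fewer cells in a phase and less RNA per cell cannot be told apart, here and in what follows.

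Ccnd2, a D-type cyclin that many cell types use in place of Ccnd1, was near the limit of detection. It had 4.36, 2.95 and 5.25 normalised reads in control, 12.4, 15.97 and 10.2 in KO1 and 0, 0.982 and 1.18 in KO2. All KO1 libraries were above all control libraries, and KO2 was below both. As recovered reads these were 13 in control, 38 in KO1 and 2 in KO2, so that control exceeded KO2 by 6.1-fold (95% counting interval 1.38 to 55.7) and KO1 exceeded KO2 by 18.8-fold (4.86 to 160.9). Since the filter admitted Ccnd2 through its high KO1 values, no test of it is read here. The counting intervals only show how few reads there are and are not read as tests either. Its fitted log2 change was 1.42 in KO1 and -1.64 in KO2, values that depend on the pseudocount, and with DESeq2 on recovered reads Ccnd2 was called in neither (adjusted p = 0.0703 and 0.141). Ccnd3, the third D-type cyclin, was not called in either clone (131.9 ± 15.1 in control, 135 ± 19.5 in KO1 and 119 ± 20.0 in KO2). Per kilobase of exon Ccnd1 made up 81.4% to 87.3% of the 3 D-type cyclins in every library, and their total per kilobase was 375 to 404 in control, 431 to 441 in KO1 and 328 to 339 in KO2.

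Cdk4, the kinase partner of the D-type cyclins, fell in KO2 alone among these comparisons with control. It stood at 1043, 987 and 1027 in control, 1054, 1028 and 1100 in KO1 and 826.5, 842 and 822.5 in KO2, where all 3 libraries lay below the other 6. The log2 change in KO2 was -0.29 ± 0.043 (adjusted p = 1.09e-07), and the interval for KO1 ran from -0.027 to 0.14. Cdk6, the second kinase of this pair, was far less abundant per kilobase in control (24.0 ± 1.71 normalised reads per kilobase, against 757 ± 21.6 for Cdk4) and moved the other way in KO2. Its values were 55.8, 57.9 and 64.0 in control, 64.9, 63.9 and 83.3 in KO1 and 88.7, 88.4 and 88.5 in KO2. The KO2 libraries were above all others, and the log2 change was 0.57 ± 0.14 (adjusted p = 0.00102). The clones themselves were not told apart for Cdk6 (log2 difference 0.33 ± 0.14, adjusted p = 0.07, interval 0.054 to 0.61). KO1 replicate 3 lay closer to the KO2 libraries than to the other KO1 libraries, and without it the difference between the clones was 0.45 (adjusted p = 0.0235).

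Of the CDK inhibitors, Cdkn1a (chromosome 17, 29090986 to 29100722), which encodes p21, a target of p53 that blocks CDKs and binds PCNA, had the largest called rise of the 39 members in KO1. It stood at 446, 444 and 476 in control, 703, 742 and 689 in KO1 and 454, 460.5 and 440.2 in KO2. The KO1 libraries were far above the rest, and KO2 overlapped control. The log2 change was 0.64 ± 0.053 in KO1 (adjusted p = 4.02e-15) and -0.012 ± 0.053 in KO2 (adjusted p = 0.917, interval -0.12 to 0.096), and the clones differed by -0.65 ± 0.053 (KO2 minus KO1, adjusted p = 1.20e-15). Cdkn1b, which encodes p27, had few reads, 45.5 ± 11.7 in control, 31.2 ± 5.15 in KO1 and 34.5 ± 5.34 in KO2. It was not called in KO1 (log2 change -0.51 ± 0.20, adjusted p = 0.0624), where the interval of -0.92 to -0.11 does not reach 0. Control replicate 1 was its highest library at 58.4. That call was gained without Control replicate 3 (log2 change -0.67, adjusted p = 0.0258) and without KO1 replicate 1 (-0.64, adjusted p = 0.0359), and with edgeR on recovered reads (-0.57, adjusted p = 0.0198), and the value was smaller without Control replicate 1 (-0.32, adjusted p = 0.394).

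**Figure D3:**
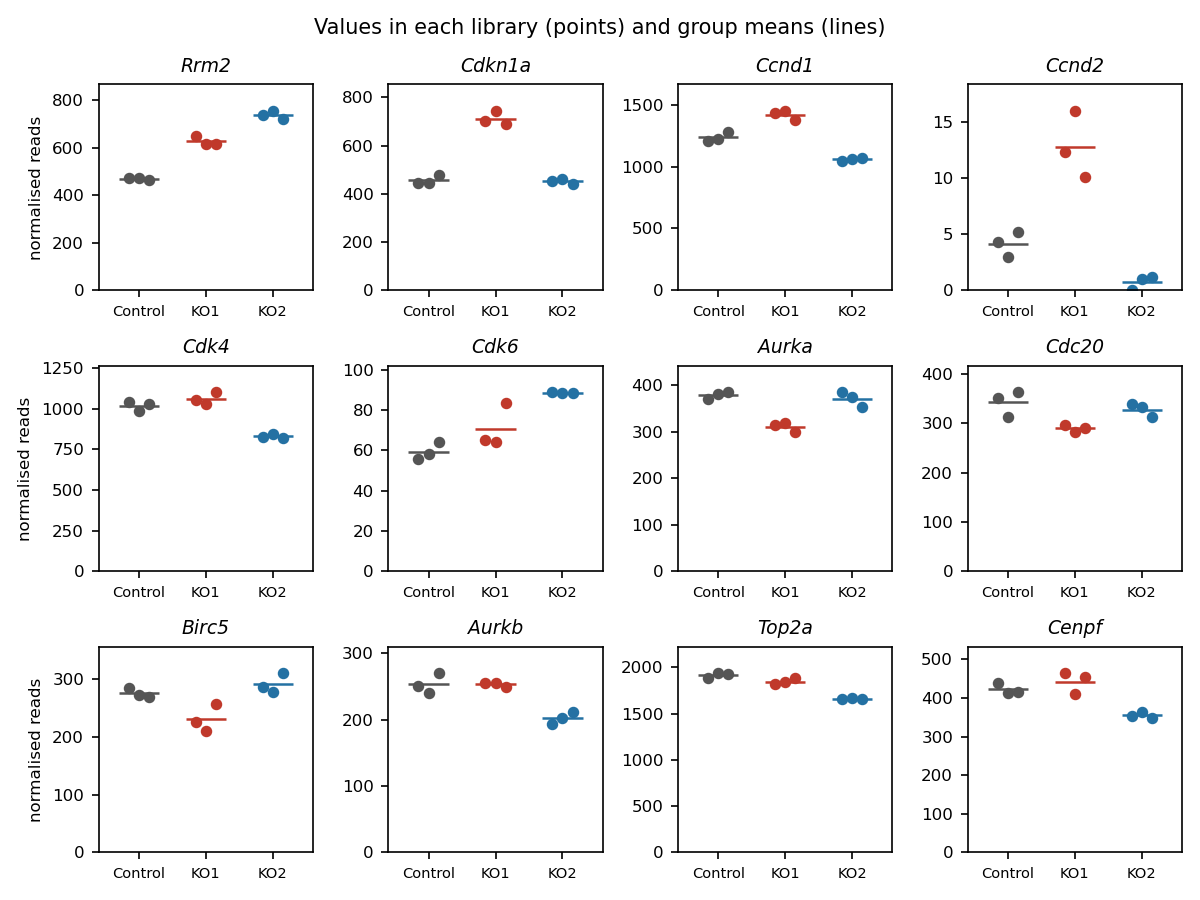
Normalised reads (y axis, from 0) of 12 members in each library (points) and the mean of each group of 3 (lines), for control (grey), KO1 (red) and KO2 (blue). Rrm2 rises from 469 in control to 628 in KO1 and 737.5 in KO2, Cdkn1a stands apart in KO1, and Cdk4, Aurkb, Top2a and Cenpf are low in KO2.

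The genes of the G1 to S switch were called in KO2 only for the E-type cyclins, which activate Cdk2 at the start of S phase. Ccne1 stood at 147, 143 and 144 in control, 142, 119 and 139 in KO1 and 168, 192 and 164 in KO2. Ccne2 stood at 68.0, 62.8 and 58.7 in control, 75.2, 68.9 and 75.2 in KO1 and 77.4, 104 and 81.4 in KO2. For both cyclins the KO2 libraries lay above the control libraries. The log2 changes in KO2 were 0.27 ± 0.095 for Ccne1 (adjusted p = 0.0329) and 0.46 ± 0.14 for Ccne2 (adjusted p = 0.00996). The Ccne1 call was lost without any 1 of Control replicate 1, 2 or 3 (adjusted p = 0.0604, 0.0762 and 0.0781) or KO2 replicate 2 (adjusted p = 0.213), and the Ccne2 call without Control replicate 3 (adjusted p = 0.0514) or KO2 replicate 2 (adjusted p = 0.135). Both calls were also lost with DESeq2 on recovered reads. The clones differed for Ccne1 (log2 difference 0.39 ± 0.095, adjusted p = 0.00111) and were not told apart for Ccne2 (0.25 ± 0.14, adjusted p = 0.195). Cdk2 (155 ± 10.6, 160.0 ± 11.5 and 159 ± 8.49 in control, KO1 and KO2) and E2f1, an activating E2F (89.6 ± 9.11, 95.8 ± 7.77 and 106.7 ± 1.4), were not called in either clone.

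The 6 genes of the MCM helicase, which is loaded at origins in G1 and unwinds DNA in S phase, moved by at most 0.11 on the log2 scale against control, in both directions. In KO2 the libraries of all 6 lay apart from those of control, 3 genes above and 3 below, and in KO1 those of 3 did, at a background of 34.5% and 32.9% of tested genes whose groups did not overlap. Mcm4, Mcm6 and Mcm7 were above control in KO2 and Mcm2, Mcm3 and Mcm5 below it, and the sum of the 6, which adds these opposite shifts, was 4371 to 4467 in control, 4332 to 4493 in KO1 and 4369 to 4502 in KO2. None of the 6 was called against control in the main limma fit, at a background of 20.8% and 22.5% called. Nor was any called by edgeR or DESeq2 on recovered reads. In other limma fits Mcm3 was called lower in KO2 when scaled by library total and without KO2 replicate 2. Mcm6 was called higher in KO2 without Control replicate 2. Mcm7 was called lower in KO1 when scaled by the total outside chromosome 12 and chromosome 16 beyond 70 Mb. An unadjusted p below 0.05 was found for 0 of the 6 in KO1 and for 2 in KO2, Mcm3 (-0.11 ± 0.047) and Mcm6 (0.10 ± 0.046). Across the 6 genes the 95% intervals of the log2 change reached from -0.20 to 0.16 in KO1 and from -0.20 to 0.20 in KO2. Between the clones Mcm7 was higher in KO2 (601, 563 and 643 were the means of control, KO1 and KO2, with a log2 difference of 0.19 ± 0.051 and an adjusted p of 0.00255). Its KO2 libraries lay at 642, 643 and 643 and its KO1 libraries at 564, 540.0 and 585, with no overlap.

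Among the other origin genes, Cdt1, which with Cdc6 loads the helicase, stood at 147, 138 and 153 in control, 132, 140 and 162 in KO1 and 195, 162 and 190 in KO2. Its KO2 libraries lay above all control libraries, with a log2 change of 0.31 ± 0.095 (adjusted p = 0.0107), and the clones differed by 0.34 ± 0.095 (adjusted p = 0.00514). That call against control was lost without Control replicate 2 (adjusted p = 0.0587), KO2 replicate 1 (adjusted p = 0.0803) or KO2 replicate 3 (adjusted p = 0.0589), and the call between the clones without KO1 replicate 1 (log2 difference 0.27, adjusted p = 0.0502). With DESeq2 on recovered reads both Cdt1 calls were lost. Cdc6 was not called (169 ± 26.8, 190 ± 6.64 and 166 ± 16.6), nor was Gins2, a subunit of the GINS complex that joins the helicase (68.2 ± 9.87, 82.7 ± 15.6 and 87.9 ± 14.8). The Gins2 change in KO2, 0.36 ± 0.14 (adjusted p = 0.0612, interval 0.074 to 0.65), lay close to the threshold, and it passed with the replicate number as a block (adjusted p = 0.0439), without Control replicate 3 (adjusted p = 0.0307) and without KO2 replicate 2 (adjusted p = 0.0466), and it was smallest without KO2 replicate 3 (0.23, adjusted p = 0.364). For Cdc6 the highest and lowest of the 9 libraries were both controls, Control replicate 3 at 198 and Control replicate 2 at 145.

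Rrm2 (chromosome 12, 24708254 to 24714146, plus strand), which encodes the small subunit of ribonucleotide reductase, the enzyme that makes deoxynucleotides, rose in both clones. It stood at 472, 471 and 464 in control, 649, 618 and 618 in KO1 and 739, 754 and 719.9 in KO2. The 3 groups were far apart and did not overlap. The log2 change was 0.42 ± 0.050 in KO1 (adjusted p = 6.14e-10) and 0.65 ± 0.050 in KO2 (adjusted p = 1.26e-16), and KO2 exceeded KO1 by 0.23 ± 0.050 (adjusted p = 0.000201). Rrm1, the large subunit of the same enzyme, was not called in either clone (894 ± 19.2, 949.9 ± 27.9 and 914 ± 26.0), with intervals of 0.0002 to 0.17 in KO1 and -0.056 to 0.12 in KO2. Tyms, which makes thymidylate, was not called either (198 ± 14.8, 185 ± 8.21 and 176.5 ± 8.69).

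Rrm2 is the only member on chromosome 12, over whose tested genes the median change lay away from 0 in both clones, in opposite directions. Over the 347 tested chromosome 12 genes the median log2 change was -0.28 in KO1, where 15 rose and 152 fell, and of 0.28 in KO2, where 157 rose and 13 fell. In KO1 Rrm2 lay on the other side of 0 from that median. In KO2 it lay on the same side, beyond the median, and between the clones its difference of 0.23 was below the chromosome's median difference of 0.57. The 5 other tested genes whose starts lie within 2 Mb of that of Rrm2 had a median of -0.010 in KO1 and -0.077 in KO2. Among them 2 were called higher and 1 lower in KO1, and 1 higher and 2 lower in KO2. Between the clones their median difference was 0.15, with 1 higher and 2 lower in KO2. Of the 5 listed genes of replication and mitosis on this chromosome that are not members, E2f6, a repressive E2F, went with the chromosome (-0.37 ± 0.10 in KO1, adjusted p = 0.00516, and 0.50 ± 0.10 in KO2, adjusted p = 7.95e-05). So did Ncapg2, a condensin II subunit (-0.21 ± 0.059 in KO1, adjusted p = 0.00508, and 0.32 ± 0.059 in KO2, adjusted p = 2.10e-05). Pole2, a polymerase subunit, was at 0.057 ± 0.12 in KO1 (adjusted p = 0.812) and rose in KO2 (0.64 ± 0.12, adjusted p = 4.21e-05). Mnat1 (-0.33 ± 0.13 in KO1, adjusted p = 0.0717, and 0.17 ± 0.13 in KO2, adjusted p = 0.408) and Lin52 (-0.41 ± 0.20, adjusted p = 0.158, and 0.006 ± 0.20, adjusted p = 0.989) were not called.

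**Figure D4:**
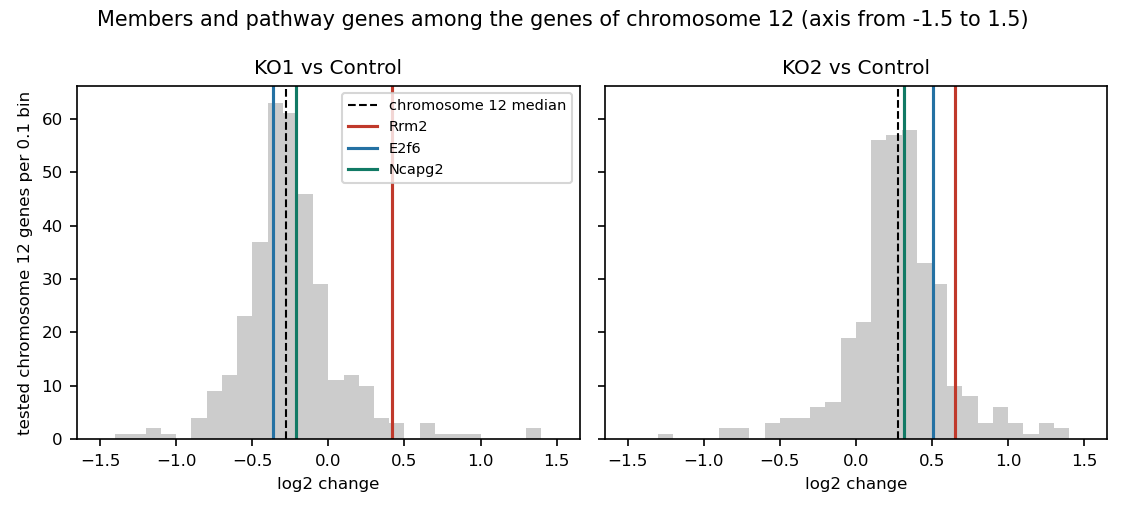
Number of tested chromosome 12 genes (y axis, per 0.1 bin) by log2 change against control (x axis, cut on both sides) in KO1 and KO2, with the chromosome's median (dashed) and the values of Rrm2, E2f6 and Ncapg2. The median lies at -0.28 in KO1 and 0.28 in KO2, and Rrm2 lies to the right of it in both clones, at 0.42 and 0.65.

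Pcna, the sliding clamp of the DNA polymerases and per kilobase the most abundant member in control (849 ± 4.38 normalised reads per kilobase), moved by small amounts in opposite directions. It stood at 1075, 1069 and 1064 in control, 1143, 1139 and 1176 in KO1 and 997, 978 and 988 in KO2, and the groups did not overlap. The log2 change was 0.11 ± 0.040 in KO1 (adjusted p = 0.046) and -0.11 ± 0.040 in KO2 (adjusted p = 0.0306). Both calls were lost in most settings that left out a library, with an adjusted p for Pcna in KO1 of up to 0.171 (without KO1 replicate 3) and in KO2 of up to 0.0918 (without KO2 replicate 2), and in KO1 also when scaled by library total (log2 change 0.074, adjusted p = 0.198). With DESeq2 on recovered reads both calls were lost as well. The difference between the clones, -0.22 ± 0.040 (adjusted p = 9.93e-06), was called in every alternative tried. Rfc4, a subunit of the loader that places the clamp, was not called (136 ± 6.97, 142 ± 11.3 and 127.5 ± 8.33).

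Of 15 members that act in mitosis, 4 fell in KO1 (Aurka, Cdc20, Birc5 and Mki67), where 10.2% of tested genes fell, and 3 in KO2 (Aurkb, Cenpf and Top2a), where 11.8% fell. In limma, edgeR and DESeq2 0 of the 15 rose, with 10.5% and 10.7% of tested genes called higher by limma, and at an unadjusted p below 0.05 in limma 0 were higher in KO1 and 1, Bub1, in KO2. Aurka, the kinase of centrosomes and spindle poles, stood at 371, 381 and 385 in control, 315, 318 and 299.8 in KO1 and 385, 376 and 353 in KO2. All KO1 libraries were below the other 6, with a log2 change of -0.28 ± 0.062 (adjusted p = 0.000344) in KO1 and an interval of -0.16 to 0.095 in KO2. Aurkb, the kinase of the chromosomal passenger complex at centromeres, showed the reverse, at 250.4, 241 and 269.6 in control, 256, 255.5 and 249.0 in KO1 and 193, 202 and 211 in KO2. There the KO2 libraries were below the other 6, with a log2 change of -0.32 ± 0.075 (adjusted p = 0.000614) in KO2 and an interval of -0.15 to 0.15 in KO1. Between the clones the difference was 0.25 ± 0.062 for Aurka (adjusted p = 0.00113) and -0.32 ± 0.075 for Aurkb (adjusted p = 0.000509).

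Cdc20, which activates the anaphase-promoting complex, and Birc5 (survivin), a partner of Aurkb in the passenger complex, fell in KO1 beside Aurka. Cdc20 stood at 352, 313 and 363 in control, 297, 282.5 and 292 in KO1 and 339, 333 and 313 in KO2. Birc5 stood at 284, 272 and 269 in control, 226, 209.6 and 257 in KO1 and 285, 277 and 309 in KO2. For both genes the KO1 libraries lay below the control libraries, and KO2 overlapped control. The log2 changes in KO1 were -0.24 ± 0.067 for Cdc20 (adjusted p = 0.00617) and -0.26 ± 0.075 for Birc5 (adjusted p = 0.00791). Cdc20 lost its call without Control replicate 3 (adjusted p = 0.0643) and on the FPKM tables (adjusted p = 0.0626), and Birc5 without KO1 replicate 2 (log2 change -0.19, adjusted p = 0.102). With DESeq2 on recovered reads both calls were lost. The clones differed for Birc5 (0.33 ± 0.075, adjusted p = 0.000323) and for Cdc20 (0.18 ± 0.067, adjusted p = 0.044), the latter call being lost without KO1 replicate 1, 2 or 3 (adjusted p = 0.0565, 0.137 and 0.0814) or KO2 replicate 1 or 2 (adjusted p = 0.152 and 0.118). The Cdc20 difference was also not called with DESeq2 on recovered reads or with no filter on low values. Mki67, which encodes the proliferation marker Ki-67, had 2886, 2913 and 2884 in control, 2741, 2694 and 2666 in KO1 and 2805, 2859 and 2856 in KO2. The KO1 libraries lay below the other 6. Its fall in KO1 was small, -0.10 ± 0.030 (adjusted p = 0.00936), and was not called without KO1 replicate 3 (-0.087, adjusted p = 0.0569) or on the FPKM tables (-0.095, adjusted p = 0.166).

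Top2a, the topoisomerase that untangles sister chromatids, and Cenpf, a protein of the outer kinetochore, fell in KO2 beside Aurkb. Top2a stood at 1880, 1935 and 1924 in control, 1817, 1837 and 1880 in KO1 and 1654, 1666 and 1658 in KO2. Cenpf stood at 439, 412 and 415 in control, 464, 409 and 453 in KO1 and 354, 363 and 349 in KO2. For both genes the KO2 libraries lay below the other 6. The log2 changes in KO2 were -0.20 ± 0.034 for Top2a (adjusted p = 2.35e-06) and -0.25 ± 0.060 for Cenpf (adjusted p = 0.00113), and the latter was not called on the FPKM tables (-0.20, adjusted p = 0.118). KO2 was also below KO1 for Top2a (-0.15 ± 0.034, adjusted p = 0.000317) and for Cenpf (-0.31 ± 0.060, adjusted p = 3.28e-05).

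The core of the mitotic engine was not called in either clone in the main fit. Cdk1, the kinase that drives entry into mitosis, had 501 ± 14.4, 525 ± 35.2 and 515 ± 27.7 in control, KO1 and KO2. Its cyclins Ccna2 (641 ± 58.7, 654 ± 25.9 and 614 ± 45.6), Ccnb1 (635.5 ± 16.7, 598.5 ± 19.3 and 639.6 ± 20.4) and Ccnb2 (255 ± 9.09, 272 ± 16.6 and 257 ± 24.4) lay within a narrow range. When scaled by the total outside chromosome 12 and chromosome 16 beyond 70 Mb, Ccnb1 was called lower in KO1 than in control. It was also called higher in KO2 than in KO1 there. The kinase Plk1, which acts throughout mitosis, had 228 ± 17.1, 213 ± 22.1 and 211 ± 8.44. For these 5 genes and the Aurora kinase not called in a clone, the 95% intervals of the log2 change stayed between -0.26 and 0.24 in KO1 and between -0.27 and 0.16 in KO2. The motor Cenpe, which moves chromosomes to the spindle equator, had 385 ± 8.09, 396 ± 25.3 and 385 ± 16.5. Of the spindle checkpoint kinases, Bub1b (743 ± 29.4, 689 ± 8.49 and 689 ± 12.3) was not called in the main fit, but both clones lay below all control libraries. The log2 change of Bub1b was -0.11 ± 0.047 in KO1 (adjusted p = 0.103, interval -0.20 to -0.013) and in KO2 (adjusted p = 0.0907, interval -0.20 to -0.015). Its fall was called in both clones when scaled by library total and without Control replicate 2. In KO1 it was also called when scaled by the total outside chromosome 12 and chromosome 16 beyond 70 Mb. Bub1 differed in the main fit only between the clones (372.5 ± 3.07, 362 ± 27.0 and 415 ± 33.8, log2 difference 0.19 ± 0.064, adjusted p = 0.0173). The libraries of the clones overlapped for Bub1, and that call was lost without KO1 replicate 3 (0.13, adjusted p = 0.177), KO2 replicate 1 (0.18, adjusted p = 0.0559) or KO2 replicate 3 (0.14, adjusted p = 0.156). It was lost with DESeq2 on recovered reads too.

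Set against each other, the clones differed for 15 of the 39 members other than Ccnd2, 8 higher and 7 lower in KO2. That is 38.5%, at a background of 26.5% (12.9% higher and 13.5% lower) and of 28.6% among genes within their range of levels. Their median absolute log2 difference was 0.15, that of all tested genes 0.17 and that of genes within their range of levels 0.15. Higher in KO2 were Rrm2, Mcm7, Cdt1, Ccne1, Aurka, Bub1, Cdc20 and Birc5, and lower were Ccnd1, Cdk4, Cdkn1a, Pcna, Aurkb, Top2a and Cenpf. By overlap of libraries, 17 of the 39 had groups that did not overlap in KO1 against control, where 32.9% of tested genes did not, 23 in KO2 against control (34.5%) and 21 between the clones (37.4%).

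The split of calls in KO1 depended on the scaling. With Ccnd2 counted, the deposited scaling gave 5 higher and 4 lower, and over the other 39 members 4 and 4. Scaling by the total of genes outside chromosome 12 and outside chromosome 16 beyond 70 Mb gave 3 higher and 9 lower. The lower calls gained were Cdkn1b, Mcm7, Ccnb1, Bub1b and Top2a, and the higher call of Pcna was lost. Under that scaling 39 members were tested, without Ccnd2, and the median of all tested genes was -0.052. Of the single calls, those of Rrm2, Cdkn1a, Ccnd1 and Aurka in KO1 and of Rrm2, Ccnd1, Cdk4, Cdk6, Aurkb and Top2a in KO2 were made in every alternative that was run.

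A further 215 genes of the same pathways that are not among the 40 were listed, of which 208 were in the table and 205 were tested. In KO1 11 rose and 17 fell, 13.7% of them against the 20.8% of all tested genes, and in KO2 17 rose and 21 fell, 18.5% against 22.5%. Their median absolute log2 change was 0.094 in KO1 and 0.12 in KO2. Among 69 genes of replication 4 rose and 5 fell in KO1 and 7 rose and 3 fell in KO2, among 109 of mitosis 5 rose and 9 fell and then 7 rose and 16 fell, and among 27 of G1 and S entry control 2 rose and 3 fell and then 3 rose and 2 fell.

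Of these, the genes named next were called with groups that did not overlap and were among the 5 with the largest changes in a direction and comparison. Msh6, a protein of mismatch repair, fell in both clones. It had 457 ± 18.2 in control, 349 ± 6.76 in KO1 and 373 ± 15.1 in KO2, with log2 changes of -0.39 ± 0.060 in KO1 (adjusted p = 5.51e-07) and -0.29 ± 0.060 in KO2 (adjusted p = 0.000101).

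Chaf1b, a subunit of the factor that places histones on new DNA, fell in KO1 from 118 ± 7.55 to 58.2 ± 3.03 (-1.01 ± 0.12, adjusted p = 3.70e-10) and stood at 119 ± 3.36 in KO2. It lies on chromosome 16 beyond 70 Mb, where the 62 tested genes had medians of -0.80 in KO1 and -0.020 in KO2 on the log2 scale. Cdc45, which completes the replicative helicase, fell in KO1 from 163 ± 1.06 to 121.5 ± 16.8 (-0.43 ± 0.098, adjusted p = 0.000536). Depdc1b fell from 45.2 ± 5.37 to 27.1 ± 5.41 (-0.73 ± 0.20, adjusted p = 0.00479) and Cenpw, a centromere protein, from 46.0 ± 5.11 to 31.4 ± 3.78 (-0.54 ± 0.19, adjusted p = 0.0297). Mcm10, an initiation factor, rose in KO1 from 194 ± 11.1 to 265 ± 24.4 (0.44 ± 0.079, adjusted p = 1.11e-05), and Cks2, a small CDK-binding protein, from 121 ± 7.22 to 160.4 ± 5.71 (0.41 ± 0.095, adjusted p = 0.000742). Nuf2, a kinetochore protein, rose by 0.26 ± 0.074 (adjusted p = 0.00585), Timeless, a fork protection factor, by 0.27 ± 0.088 (adjusted p = 0.0192) and Pttg1 (securin), which holds back separase, by 0.29 ± 0.11 (adjusted p = 0.0397). Pttg1 lost its call without any 1 of the control or KO1 libraries (adjusted p = 0.0522 to 0.202), Timeless without Control replicate 1 or 2 or KO1 replicate 2 or 3 (adjusted p = 0.0551, 0.0639, 0.174 and 0.0544), Nuf2 without KO1 replicate 3 (adjusted p = 0.0588), and Cenpw without Control replicate 1 or 3 or KO1 replicate 1 or 3 (adjusted p = 0.0641, 0.138, 0.0534 and 0.135). With DESeq2 on recovered reads the calls of Pttg1, Timeless, Nuf2 and Cenpw were lost too.

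In KO2 Pole2, a subunit of the leading strand polymerase that lies on chromosome 12, rose from 73.1 ± 2.67 to 115 ± 2.98 (0.64 ± 0.12, adjusted p = 4.21e-05), and stood at 76.4 ± 9.04 in KO1. E2f6 and Ncapg2 rose as given above. Tacc3, a spindle protein, rose from 301 ± 3.12 to 388 ± 35.4 (0.36 ± 0.066, adjusted p = 1.51e-05), and Gmnn (geminin), the inhibitor of Cdt1, from 154 ± 10.0 to 191 ± 9.75 (0.31 ± 0.092, adjusted p = 0.00777). Melk, a kinase of dividing cells, fell from 154 ± 10.5 to 115 ± 5.75 (-0.41 ± 0.098, adjusted p = 0.000823) and Cenpc1, a centromere protein, from 137 ± 8.51 to 102.5 ± 4.36 (-0.41 ± 0.10, adjusted p = 0.00161). Lin54, a MuvB subunit, fell from 114.5 ± 11.8 to 91.4 ± 11.8 (-0.32 ± 0.12, adjusted p = 0.035). The Gmnn call was lost without Control replicate 1 (log2 change 0.27, adjusted p = 0.0545), and that of Lin54 without Control replicate 3, KO2 replicate 1 or KO2 replicate 2 (adjusted p = 0.215, 0.123 and 0.157). With DESeq2 on recovered reads the calls of Gmnn and Lin54 were lost too.

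Between the clones Chaf1b (log2 difference 1.02 ± 0.12, adjusted p = 1.86e-10), E2f6 (0.87 ± 0.10, adjusted p = 2.39e-10), Pole2 (0.59 ± 0.12, adjusted p = 0.000158), Cenpw (0.55 ± 0.19, adjusted p = 0.02) and Ncapg2 (0.53 ± 0.059, adjusted p = 5.75e-11) were higher in KO2. Timeless was lower in KO2 (205 ± 20.6 in KO1 against 151 ± 1.81, -0.43 ± 0.088, adjusted p = 7.28e-05), as was Pttg1 (181 ± 13.7 against 127 ± 27.4, -0.52 ± 0.11, adjusted p = 6.96e-05). Ndc80, a kinetochore protein (-0.34 ± 0.10, adjusted p = 0.00819), Melk (-0.28 ± 0.098, adjusted p = 0.0275) and Kif20b, a motor of cytokinesis (-0.22 ± 0.072, adjusted p = 0.0187), were lower in KO2 as well. With DESeq2 on recovered reads the differences in Cenpw, Ndc80, Melk and Kif20b were not called. The calls of Cenpw, Melk and Kif20b between the clones were lost without KO2 replicate 1 (adjusted p = 0.137, 0.0523 and 0.0517) or KO2 replicate 2 (adjusted p = 0.0639, 0.109 and 0.0768), and also without KO1 replicate 3 for Cenpw (adjusted p = 0.0986), KO1 replicate 2 for Melk (adjusted p = 0.0968) and KO1 replicate 1 for Kif20b (adjusted p = 0.0903).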

How the data were processed

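Total RNA of 9 samples was made into stranded mRNA libraries (TruSeq Stranded mRNA), per the labels' protocols. The tools in the submitters' processing notes are, without stated roles, edgeR 3.20.1, featureCounts 1.4.6, Cufflinks 2.1.1 and TopHat2 2.0.22, and the build is mm10. The main table was deposited as normalised values (unit: signal), that is, reads per gene over a size factor of each library, and its name points to TMM scaling by the authors. Every value was a whole multiple of its library's step within 1e-06 (100%), so reads could be recovered. Columns were tied to samples by the library name given in the labels that equals the column name, and 3 columns of an FPKM table, whose names match samples of both clones, were not used. The deposited FPKM values, which the authors scaled within each pair of groups, served as an alternative for KO1 and KO2 against control.

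Values were tested as log2(value + 1) by limma-trend (limma 3.58.1, R 4.3.3) in 1 fit of all 9 libraries by group, after the filter of 10 or more normalised reads in 3 or more libraries, with Benjamini-Hochberg adjustment over 9564 genes per comparison. Fold changes on this scale understate those of genes with few reads. Intervals are 95% intervals of the fit, or exact binomial ones for reads, which cover counting error only. Members and lists were chosen with earlier results of these data known. Genes outside the 40 were named by size, up to 5 per direction and comparison, among called genes whose groups did not overlap and whose higher group had a mean of at least 10. Not every gene that this rule selects is reported here. On simulated data the procedure recovered 34% of genes changed 1.3-fold and 98% of those changed 2-fold in 9510 genes, for KO1 against control, and called 5 unchanged genes. Alternatives were edgeR 4.0.16, DESeq2 1.42.0, other scalings, filters and pseudocounts, fits of fewer libraries and a replicate block. Residuals of libraries with the same number had correlations of -0.017 to 0.028, so the numbers were not taken as pairs.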

Additional observations from a re-analysis of the deposited data

Results flagged for a closer look

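The direct comparison of the clones tested whether their changes differ, and 15 of the 39 members other than Ccnd2 passed. That is 38.5%, where 26.5% of all tested genes passed and 28.6% of those within the members' range of levels. As log2 level in KO2 minus KO1, the members that were higher in KO2 were Ccne1 (0.39), Cdt1 (0.34), Birc5 (0.33), Aurka (0.25), Rrm2 (0.23), Bub1 (0.19), Mcm7 (0.19) and Cdc20 (0.18). Those lower in KO2 were Cdkn1a (-0.65), Ccnd1 (-0.42), Cdk4 (-0.35), Aurkb (-0.32), Cenpf (-0.31), Pcna (-0.22) and Top2a (-0.15). Bub1, Cdc20 and Cdt1 lost this call in 1 or more of the alternatives. Ccnd2, at -3.07, was admitted to the test by its high values in KO1, so its difference is a description.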

How the results depend on the processing

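Counts here include Ccnd2 where it was tested. Only 39 members, without Ccnd2, were tested at a filter value of at least 30 and on the FPKM tables. The same held with scaling outside chromosome 12 and distal chromosome 16 and without any 1 KO1 library. In KO2 against control it held also when only the 2 groups compared were fitted. No called member changed sign in any alternative. Of the calls, 4 of 9 in KO1, 6 of 12 in KO2 and 13 of 16 between the clones were made under every alternative that tested the gene. The 13 include Ccnd2, which was tested in 13 alternatives between the clones, where the other members were tested in 18. Ccnd2 is also among the 9, 12 and 16 calls, and its calls are not read as tests. Members higher in KO1 against control went from 5 to 3 at an adjusted p below 0.01, with DESeq2 (on recovered reads), on the FPKM tables and with scaling outside chromosome 12 and distal chromosome 16, and ranged from 3 to 5 with 1 library left out. Members lower in KO1 went from 4 to 9 with that scaling, to 2 with DESeq2 and to 2 on the FPKM tables, and ranged from 3 to 5. Members higher in KO2 went from 5 to 3 at an adjusted p below 0.01 and to 2 with DESeq2, and ranged from 4 to 5. Members higher in KO2 than in KO1 went from 8 to 5 with DESeq2 and to 11 with the scaling outside both regions, and ranged from 6 to 9. Members lower in KO2 went from 7 to 5 with DESeq2, to 5 on the FPKM tables and to 9 when scaled by library total, and ranged from 6 to 7 with 1 library left out. Members lower in KO2 than in KO1 went from 8 to 7 with that regional scaling and ranged from 7 to 9. In the settings that did not test Ccnd2, its calls in the main fit (higher in KO1, lower in KO2 and lower between the clones) are missing from the counts. Other causes were not tested for any of these. Over all tested genes limma called 1985, 2152 and 2533 in KO1, in KO2 and between the clones, DESeq2 1236, 1396 and 1612, and edgeR on recovered reads 2116, 2233 and 2585. With the replicate block 4 higher and 4 lower were called in KO1, 6 and 7 in KO2 and 8 and 8 between the clones. It changed the calls of Pcna in KO1 (adjusted p = 0.0579) and Gins2 in KO2. The FPKM alternative was not run between the clones, since the columns of that table could not be tied to samples. Depth limits what can be said of Ccnd2 and Cdkn1b, which had few reads.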
